A study of Mus musculus with 4 samples.

Results

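Deoxynucleotide supply was examined through 8 genes, Rrm2, Rrm1, Tk1, Tyms, Dck, Dut, Dctd and Samhd1, out of 55397 genes listed. All 8 were found in the table by their gene symbol, and all 8 averaged 10 or more normalized counts, the filter for testing. The set was chosen from the values of this experiment, because Rrm2 was higher in libraries labelled Prox1 KO, and it asks whether Rrm2 stood alone among genes of its pathway. The differences of the 8 genes between those libraries and the controls are therefore given as a description with no test.

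The cells were mouse embryonic fibroblasts (MEFs) from E13.5 embryos of C57BL/6J mice with the genotype Prox1(fl/fl), in which both alleles of the transcription factor gene Prox1 carry loxP sites. The MEF lines were made from limbs pooled over several embryos. Every culture received lentivirus with 4in1, a set of transcription factors that turns fibroblasts into induced hepatocytes (iHeps), and was grown in hepatocyte medium until day 14. By the study's methods, lentivirus with rtTA was added as well, and doxycycline in the medium induced the transgenes. In the libraries labelled Prox1 KO, a further lentivirus carried Cre-recombinase with GFP, and in the controls a non-functional delta Cre-recombinase with GFP. There were 2 libraries in each group, with the replicate numbers 1 and 2, made from total RNA of whole cultures with a protocol that keeps the strand. In bulk RNA, fewer cells of a type and less RNA per cell cannot be told apart.

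The libraries held 42469031 to 48524008 reads on genes. Values are normalized counts, reads per gene divided by a size factor per library. Prox1, the targeted gene, had 72.7 and 61.6 normalized counts in libraries labelled Prox1 KO (replicates 1 and 2) and 60.6 and 25.5 in the controls, from 70, 63, 66 and 24 reads. By label, then, Prox1 KO libraries did not have less Prox1 transcript. According to the study's description Cre removes a single exon, so a count over the whole gene keeps reads of the other exons and does not check the deletion. All directions below rest on the labels.

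Hepatocyte marker transcripts were present in all libraries, and fibroblast markers were far more abundant. The summed normalized counts of 10 hepatocyte markers were 22090 and 24290 in libraries labelled Prox1 KO, and 31770 and 35890 in the controls. Of these 10 markers, 9 fell and 0 rose in limma's test. The sum over 10 fibroblast markers ran from 1459000 to 1776000 with overlapping groups, and 4 of the 10 fell. Of 5 macrophage markers, Adgre1 was at 0 in every library, and the sum was 488.4 and 575.7 against 628.8 and 653.6, with 1 of 3 tested genes lower. The sum over 5 endothelial markers was 1067 and 949.1 against 750.9 and 646.1, with 1 of 3 tested genes higher. That gene, Kdr, made up most of the sum, with 938 and 770 normalized counts against 564 and 509. Tek and Emcn had replicate pairs of opposite sign, and Pecam1 and Cdh5 had means under 10. Kdr, Tek and Emcn were named after their values were seen. These marker counts are to be read beside all genes tested, of which 5.09% were higher and 6.29% lower. The part of these marker differences in the results below was not tested.

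Cells make deoxynucleotides for DNA replication by reducing ribonucleotides, with an enzyme called ribonucleotide reductase. Its large subunit, Rrm1, holds the catalytic site, and its small subunit, Rrm2, carries the radical needed for the reaction. Rrm2 is made mainly in S phase and is destroyed later in the cell cycle, whereas Rrm2b, a related small subunit induced by p53, serves repair and mitochondrial DNA outside S phase. Thymidylate synthase (Tyms) makes dTMP from dUMP, Dut supplies dUMP from dUTP, and Dctd makes dUMP from dCMP. The salvage kinases Tk1 and Dck phosphorylate thymidine and deoxycytidine. Samhd1 breaks deoxynucleotides down again.

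Rrm2 (ENSMUSG00000020649) lies on the plus strand of GRCm38 at chr12:24708241-24714146, and its longest coding transcript has 2193 bases in 10 exons. Rrm1 (ENSMUSG00000030978) lies on the plus strand at chr7:102441695-102469771, and Tk1 (ENSMUSG00000025574) on the minus strand at chr11:117815526-117826092. The bases upstream of these 3 genes are shown because Rrm2 was higher, Tk1 was lower and Rrm1 was close to level in libraries labelled Prox1 KO, and because genes of DNA replication often carry CCAAT boxes and sites for E2F factors near their starts. The sequences are RefSeq promoters of GRCm38.p6 on the strand of the gene, cut where the annotated gene begins. They cover chr12:24708004-24708240 for Rrm2, chr7:102441445-102441694 for Rrm1 and chr11:117826093-117826264 for Tk1. Capitals mark CCAAT.
Rrm2: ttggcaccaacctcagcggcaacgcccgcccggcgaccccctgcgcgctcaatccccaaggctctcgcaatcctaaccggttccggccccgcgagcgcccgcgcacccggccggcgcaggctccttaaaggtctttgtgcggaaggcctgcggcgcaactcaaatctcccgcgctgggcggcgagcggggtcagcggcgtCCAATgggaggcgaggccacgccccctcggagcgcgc
Rrm1: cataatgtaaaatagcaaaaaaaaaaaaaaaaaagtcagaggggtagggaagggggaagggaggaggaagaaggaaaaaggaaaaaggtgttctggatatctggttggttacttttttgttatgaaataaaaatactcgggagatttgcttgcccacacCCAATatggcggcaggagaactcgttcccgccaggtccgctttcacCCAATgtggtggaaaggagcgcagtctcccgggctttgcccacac
Tk1: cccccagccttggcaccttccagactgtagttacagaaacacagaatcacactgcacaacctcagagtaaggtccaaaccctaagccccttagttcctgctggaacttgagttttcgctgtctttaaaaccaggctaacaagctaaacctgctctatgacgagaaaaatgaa

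Within 250 bases upstream of the RefSeq start, on both strands, Rrm2 held 1 CCAAT (bases -50 to -46) and Rrm1 held 2 (-91 to -87 and -45 to -41). Tk1 held none in these 250 bases. At least 1 CCAAT was found in 33.8% of 32851 mouse promoters of this length, and at least 2 in 10.1%. The letters TTTGGCGC, TTTGCCGC, TTTCGCGC and TTTCCCGC, forms of the E2F site, occurred in 1.86% of all promoters and in none of the 8 genes'. The cell cycle element CHR (TTTGAA or TTCGAA) occurred in 17.1% of all promoters and once among the 8 genes, in Dck. Of the others, Dctd had the same CCAAT in 2 of its 3 promoters, whose windows overlap. Both windows lie inside the annotated gene, and the promoter just upstream of the gene held none. These matches describe the letters only, and a missing match says nothing about binding.

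Rrm2 had 8334 and 6065 normalized counts in libraries labelled Prox1 KO and 5210 and 3922 in the controls. Both libraries labelled Prox1 KO were above both controls, and in each group replicate 1 was above replicate 2. Within replicate numbers, Rrm2 was 1.60-fold higher in replicate 1 and 1.55-fold higher in replicate 2. Its group means were 7200 ± 1604 and 4566 ± 911 (SD, n = 2 each), and the fitted log2 fold change was 0.65 with a standard error of 0.04. The fit was limma on log2(normalized counts + 1) over 15809 genes with the replicate number as a block, and all fold changes below are on that scale. In this order Rrm2 was 284 of 15809 by log2 fold change. Of the 100-base windows of its transcript, 1.96% also occur in a pseudogene, Gm48445, which held 4, 1, 0 and 0 reads.

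**Figure D1:**
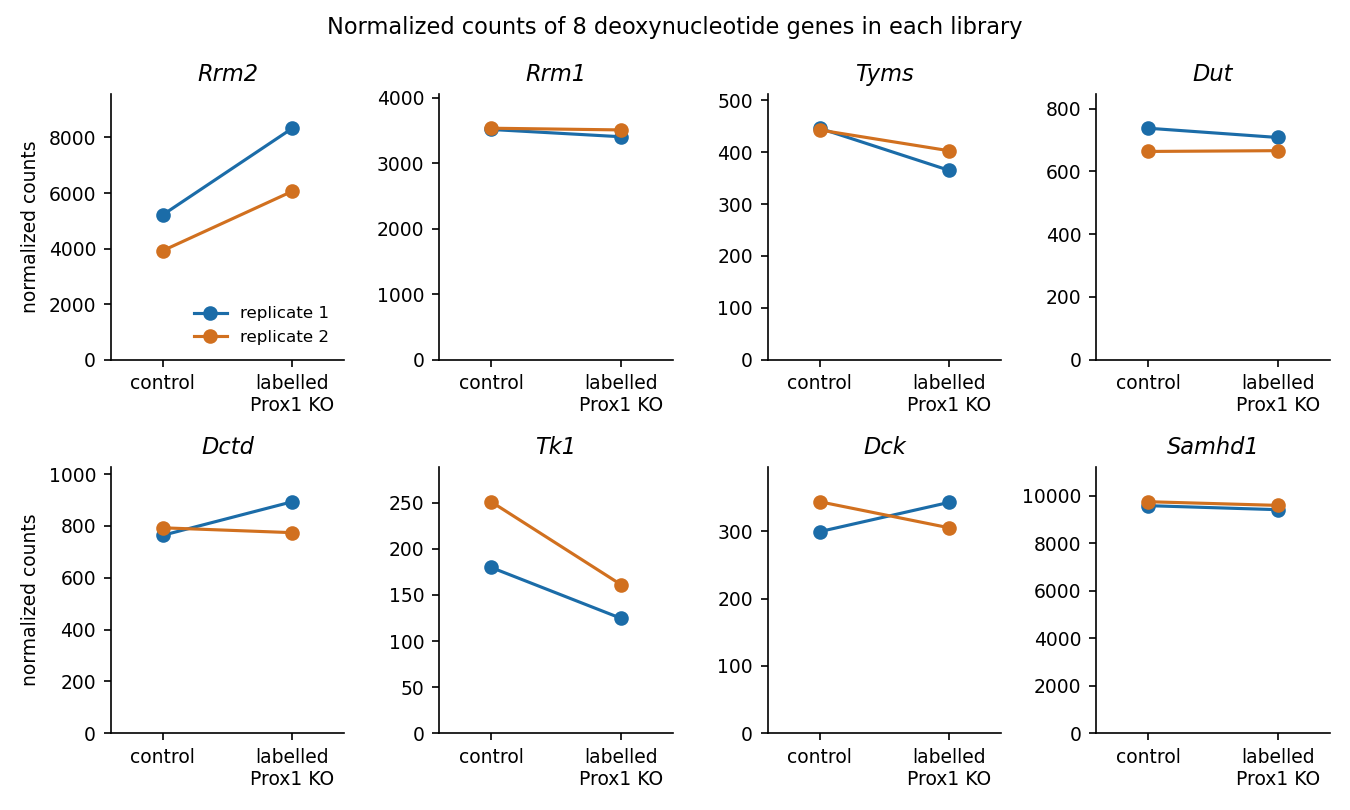
Normalized counts (vertical axes, starting at 0, each with its own scale) of the 8 genes in the control libraries and the libraries labelled Prox1 KO. Each point is 1 library, and lines join libraries of the same replicate number. Rrm2 runs from 3922 and 5210 up to 6065 and 8334, Tk1 runs downward in both replicates, and Rrm1 and Samhd1 are close to level.

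Rrm1, the partner subunit, had 3402 and 3506 normalized counts in libraries labelled Prox1 KO and 3513 and 3532 in the controls. The groups did not overlap, but the log2 differences were only -0.05 and -0.01 in the pairs, and the fitted log2 fold change was -0.03 ± 0.04 (SE), a sign that changed after the correction for GC content and length. Per kilobase of the longest coding transcript, the ratio of Rrm2 to Rrm1 was 4.46 and 3.15 in libraries labelled Prox1 KO. In the controls it was 2.70 and 2.02. The size of these ratios depends on the length used, and their order over the libraries does not.

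Tk1, the thymidine kinase of dividing cells, had 125 and 161 normalized counts in libraries labelled Prox1 KO and 180 and 251 in the controls. Both libraries labelled Prox1 KO were below both controls. The pair differences were -0.53 and -0.64, and the fitted log2 fold change was -0.58 ± 0.14 (SE), opposite in sign to Rrm2. Tk1 rested on 120 to 236 reads, against 3684 to 8020 for Rrm2, so its counting error is larger. Its exons overlap Afmid on the other strand, which had 127, 125, 134 and 128 normalized counts. Whether the counting used the strand is not given in the sources used here.

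Tyms had 365 and 403 normalized counts in libraries labelled Prox1 KO and 446 and 443 in the controls. All values of the libraries labelled Prox1 KO lay below the controls, with pair differences of -0.29 and -0.14 and a fitted log2 fold change of -0.21 ± 0.10 (SE). For Tyms, 3.95% of the 100-base windows also occur in other genes.

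The enzymes that feed dUMP to Tyms showed overlapping groups. Dut had 708 and 666 normalized counts in libraries labelled Prox1 KO and 737 and 663 in the controls, a fitted log2 fold change of -0.03 ± 0.08 (SE). Dctd had 894 and 774 against 764 and 793, a fitted log2 fold change of 0.10 ± 0.08 (SE), with pair differences of 0.23 and -0.03. In both genes the pairs differed in sign.

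Dck, the deoxycytidine kinase, had 343 and 305 normalized counts in libraries labelled Prox1 KO and 299 and 344 in the controls. Its pair differences of 0.20 and -0.17 cancelled in the fitted log2 fold change of 0.01 ± 0.12 (SE). Samhd1, the enzyme of breakdown, had 9422 and 9603 normalized counts against 9592 and 9758, a fitted log2 fold change of -0.02 ± 0.04 (SE). Its groups overlapped, and all 4 libraries lay close together.

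Of the 8 genes, 1 was higher in both replicate pairs (Rrm2) and 4 were lower in both (Rrm1, Tk1, Tyms and Samhd1). Another 3 had pairs of opposite sign (Dck, Dut and Dctd). Pairs of the same sign, in 5 of the 8, occurred in 10406 of the 15809 genes tested. Rrm1 and Samhd1 were close to level, with pair differences between -0.05 and -0.01. The median log2 fold change of the 8 genes was -0.03, and -0.03 without Rrm2, beside -0.002 over all genes tested. In the fit over all genes 2 of the 8, Rrm2 and Tk1, had an adjusted p under 0.05, while 11.4% of all genes tested did (5.09% higher and 6.29% lower). DESeq2 with the block called 1 of the 8, Rrm2, and 0 of the 8 passed without the block in limma or DESeq2, or with any library left out. In 4 of the 8 genes the groups did not overlap, which held for 44.4% of all genes tested. Since the genes were chosen on this comparison, these counts are given for the record only.

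Per kilobase of coding transcript, averaged over the 4 libraries, Rrm2 was the most abundant of the 8 at 2683 ± 847 normalized counts (SD over 4 libraries), followed by Samhd1 at 2444 ± 34.96. These neighbours did not differ beyond their spread, and at this length their order turned with the group. Rrm2 was above Samhd1 in both libraries labelled Prox1 KO (3800 and 2766 against 2400 and 2446 normalized counts per kilobase) and below it in both controls (2376 and 1788 against 2443 and 2486). Rrm1 came next at 873 ± 14.6, apart from both. Dctd (385 ± 28.4) and Dut (356 ± 18.3) overlapped each other. Tyms (131 ± 12.1), Tk1 (125 ± 36.9) and Dck (105 ± 7.78) were lowest. Tk1 overlapped both others, while every value of Tyms was above every value of Dck. Rrm2b, outside the set, stood at 140 normalized counts per kilobase. With the exonic length over all transcripts the order of the lower genes changed, to Dut 288, Dctd 236, Dck 85.4, Tyms 68.0 and Tk1 34.5. Rrm1 came to 317 with that length, near Dut, so its gap to the lower genes depended on the length used. Rrm2 was first at 2123, with Samhd1 at 1049. With that length Rrm2 lay above Samhd1 in the controls too, so the turn with the group depended on the length used. That turn also rests on the comparison on which Rrm2 was chosen.

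**Figure D2:**
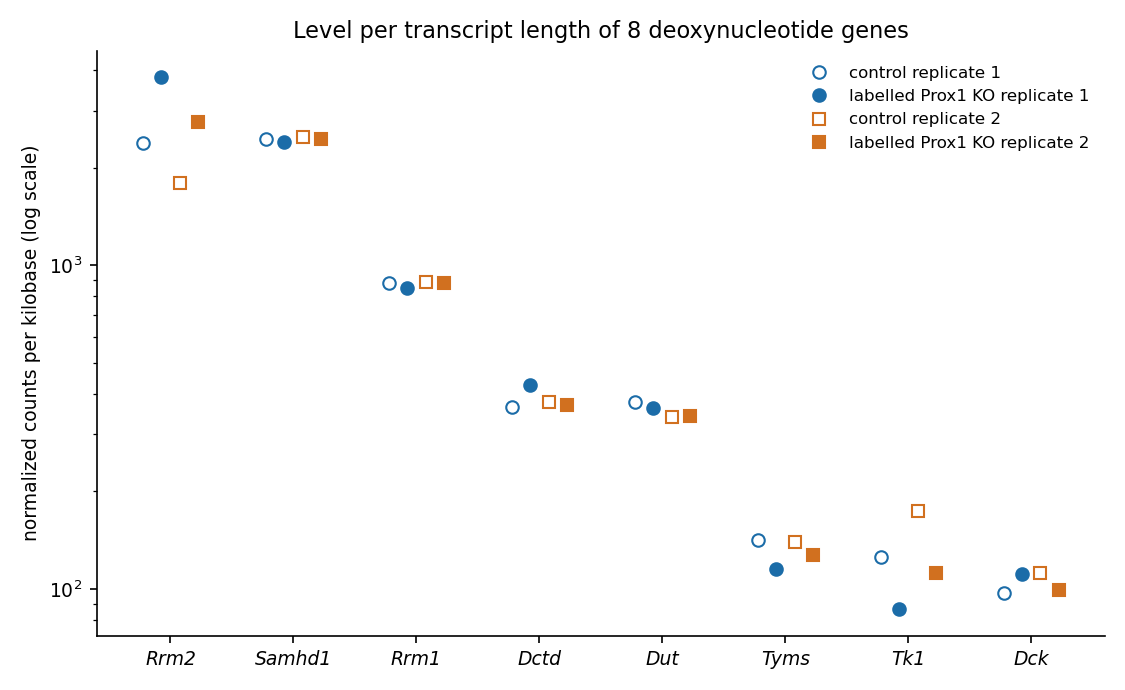
Level of the 8 genes in normalized counts per kilobase of the longest coding transcript, on a log axis. Each point is 1 library, with circles for replicate 1, squares for replicate 2, filled symbols for libraries labelled Prox1 KO and open symbols for controls. Rrm2 spans 1788 to 3800, while Samhd1 stays between 2400 and 2486 and Rrm1 between 851 and 884.

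The replicate numbers give a comparison that did not enter the choice of genes. Rrm2 was lower in replicate 2 than in replicate 1 by 0.46 on the log2 scale in libraries labelled Prox1 KO and by 0.41 in the controls. The fitted log2 difference was -0.43 ± 0.04 (SE, limma adjusted p = 5.92e-06 with a group term), so Rrm2 was higher in replicate 1 in 2 of 2 groups. It was the only one of the 8 to pass this test, while 7.88% of all genes tested passed. Tk1 had a log2 difference of 0.42 ± 0.14 (SE, limma adjusted p = 0.0865), higher in replicate 2 in both groups, and did not pass. The other 6 had log2 differences from -0.12 to 0.07. The limma adjusted p of Rrm2 was 0.805 when the group term was left out. The fits that left out a library had no group term either, so they do not show the effect of the library alone. Replicate 1 had 14490 and 13940 normalized counts of Xist, and replicate 2 had 4.89 and 1.06, so the replicates also differ in the sex makeup of the cells. Sex, MEF line and culture cannot be told apart here.

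Among other genes of the ribonucleotide reductase system, the alternative small subunit Rrm2b had 650 and 650 normalized counts in libraries labelled Prox1 KO and 645 and 606 in the controls, with a log2 fold change of 0.06 ± 0.08 (SE, limma adjusted p = 0.722). The ratio of Rrm2 to Rrm2b per kilobase was 26.6 and 19.4 in libraries labelled Prox1 KO and 16.8 and 13.5 in the controls. Of 7 reductase partners, including the thioredoxin and glutaredoxin systems that keep the enzyme reduced, 1 rose and 0 fell. It was Txnrd1, thioredoxin reductase, with a log2 fold change of 0.13 (limma adjusted p = 0.0473). Txnrd1 passed in 5 of 12 settings and did not pass without the block or with a pseudocount of 10, quantile normalization, TMM factors, edgeR or DESeq2. The median of the list was 0.06, and 5.09% of all genes tested rose.

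The wider pathway was described with 96 further genes, of which 88 were tested. Of these 88, 8 rose and 6 fell, 15.9% beside 11.4% of all genes, and their median log2 fold change was 0.01 beside -0.002 over all genes. The highest value among the 88 was 0.25, whereas Rrm2 stood at 0.65. Rrm2 was chosen for being higher in this comparison, so that gap is a description with no test. After correction for GC content and length the split became 11 higher and 4 lower, and over all genes it went from 804 higher and 994 lower to 1301 higher and 941 lower. DESeq2 with the same block called 1 of the 96, Uck2. The counts of each list below are to be read beside all genes tested, 5.09% higher and 6.29% lower.

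In the folate cycle, which supplies the methyl group for Tyms, 2 of 12 genes rose. Mthfd2 and Mthfd1, which interconvert folate forms, rose by 0.21 each on the log2 scale (limma adjusted p = 0.0210 and 0.00574).

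In pyrimidine synthesis, 1 of 13 tested genes rose and 1 fell. Cad, which starts the pathway, had a log2 fold change of 0.17 (limma adjusted p = 0.0219). Cmpk2, a mitochondrial nucleotide kinase, had one of -0.18 (limma adjusted p = 0.0296), which did not pass after the GC and length correction. Its groups overlapped, with 4480 and 4851 normalized counts against 4725 and 5881. Of 18 purine synthesis genes 1 rose, Impdh1 of guanine nucleotide synthesis, with a log2 fold change of 0.16 (limma adjusted p = 0.0397). In these lists the medians were -0.01 and 0.03.

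Among 10 other salvage genes, 1 rose and 0 fell. Uck2, a uridine and cytidine kinase, had 5941 and 5520 normalized counts in libraries labelled Prox1 KO and 4821 and 4790 in the controls. The groups did not overlap, and the log2 fold change was 0.25 ± 0.04 (SE, limma adjusted p = 0.00128). Among the transporters 7 of 10 were tested and 1 fell, the nucleoside carrier Slc29a1, with a log2 fold change of -0.18 (limma adjusted p = 0.0109).

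Of 21 breakdown genes tested, 2 rose and 3 fell. Nt5e, the nucleotidase at the cell surface, had 652 and 561 normalized counts in libraries labelled Prox1 KO and 824 and 775 in the controls, a log2 fold change of -0.40 (limma adjusted p = 0.00278). The cytosolic nucleotidase Nt5c3 fell by 0.36 on the log2 scale (limma adjusted p = 0.0119). Ampd3, an AMP deaminase, and Dpyd, which degrades uracil and thymine, rose by 0.21 and 0.18 (limma adjusted p = 0.00880 and 0.0299). In both genes the groups overlapped. Ampd3 had 3041 and 2503 normalized counts against 2641 and 2149, and Dpyd had 2569 and 2190 against 2334 and 1874. Purine nucleoside phosphorylase, Pnp, fell by 0.16 (limma adjusted p = 0.0413) and was named after its value was seen. It did not pass after the GC and length correction. The list's median was -0.02.

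**Figure D3:**
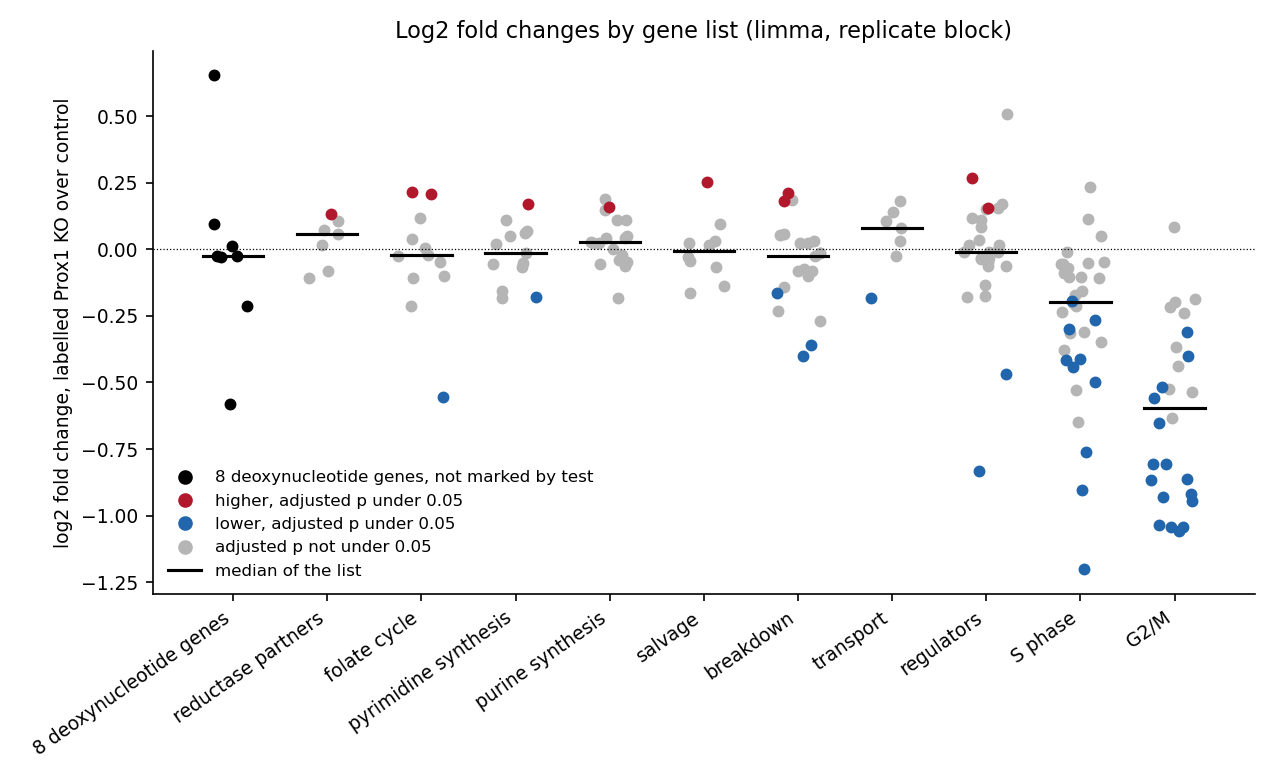
Log2 fold change (vertical axis, libraries labelled Prox1 KO over control, from limma with the replicate block) of each tested gene, grouped by list, with horizontal bars at the list medians. Red points rose and blue points fell at an adjusted p under 0.05, grey points did not pass, and the 8 deoxynucleotide genes are black because their choice used this comparison. Rrm2, chosen for being higher in this comparison, lies at 0.65, above all tested genes of the pathway, regulator, S phase and G2/M lists. The G2/M list lies mostly below 0 with a median of -0.60.

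Transcripts of other genes used in dividing cells were next set beside the 8 genes. Of 36 S phase genes 0 rose and 10 fell, with a median log2 fold change of -0.20, and 33 of the 36 values were negative. Of 26 G2/M genes 0 rose and 16 fell, with a median of -0.60. The share that fell among all genes was 6.29%. DESeq2 with the same block called 4 of the 89 regulator, S phase and G2/M genes (Mki67, Top2a, Kif23 and Mcm6, all lower), against 30 of 89 in limma. The lists were put together with earlier results of these data known.

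Among S phase genes, Mcm10 of the replication origin fell by 1.20 on the log2 scale (limma adjusted p = 0.00300), from 71.6 and 109 normalized counts in the controls to 28.1 and 50.8. Cyclin A2, Ccna2, fell by 0.91 and the origin licensing gene Cdc6 by 0.76 (limma adjusted p = 0.00308 and 0.0479). Mcm3 and Mcm2, subunits of the replicative helicase, fell by 0.50 and 0.27 (limma adjusted p = 0.00131 and 0.0212). Pcna, the clamp of the replication fork, had 1450 and 1494 normalized counts in libraries labelled Prox1 KO and 1696 and 1667 in the controls. Its log2 fold change was -0.19 (limma adjusted p = 0.0351), which did not pass after the GC and length correction.

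Among G2/M genes, Mki67, a marker of cycling cells, had 198 and 314 normalized counts in libraries labelled Prox1 KO and 442 and 526 in the controls. All values of the libraries labelled Prox1 KO were lower, with a log2 fold change of -0.95 ± 0.11 (SE, limma adjusted p = 6.61e-05). Top2a, topoisomerase II, had 334 and 373 against 561 and 681, a log2 fold change of -0.81 ± 0.09 (SE, limma adjusted p = 3.16e-05). Ccnb1, Plk1, Kif23 and Ccnb2, which act in mitosis, fell by 1.06, 1.04, 1.04 and 1.03 on the log2 scale (limma adjusted p of 0.00319, 0.00104, 0.000358 and 0.00428). Tk1, at -0.58, was close to the median of this list, and Rrm2 had the opposite sign.

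Ratios within a library do not depend on its size factor. Per kilobase, Rrm2 exceeded Pcna 3.98-fold and 2.81-fold in libraries labelled Prox1 KO and 2.13-fold and 1.63-fold in the controls. Against Mki67 the ratio was 193 and 88.7 in libraries labelled Prox1 KO and 54.1 and 34.2 in the controls. Against Tyms it was 33.0 and 21.7, compared with 16.8 and 12.8. Against Tk1 it was 43.9 and 24.7, compared with 19.01 and 10.2. In each of these ratios both libraries labelled Prox1 KO were above both controls. They share Rrm2 as the numerator, so they are not separate observations. Rrm2 was chosen for being higher in libraries labelled Prox1 KO, and each of these denominators was lower in them. The separation followed from those values and is a description with no test.

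Of 27 regulators of S phase genes and of the reductase, 2 rose and 2 fell, 14.8% beside 11.4% of all genes, with a median log2 fold change of -0.01. Rb1 and E2f6, which repress E2F targets, rose by 0.27 and 0.15 on the log2 scale (limma adjusted p = 0.0130 and 0.0378). The groups overlapped for E2f6 and not for Rb1. Mybl2, an activator of genes of G2 and mitosis, fell by 0.83 (limma adjusted p = 0.0332), from 70.7 and 72.4 normalized counts to 39.5 and 40.1. Cdc20, an activator of the anaphase-promoting complex, fell by 0.47 (limma adjusted p = 0.00344).

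Ccnf, the cyclin F that marks RRM2 protein for destruction in G2, had 254 and 214 normalized counts in libraries labelled Prox1 KO and 236 and 295 in the controls. The groups overlapped, and the log2 fold change was -0.18 ± 0.14 (SE, limma adjusted p = 0.484). Fzr1, which serves the same end in G1, had 1527 and 1409 against 1459 and 1577, a log2 fold change of -0.05 ± 0.06 (SE, limma adjusted p = 0.701). These are transcripts, and RRM2 protein was not measured in these data.

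Genes whose pattern was most like that of Rrm2 were found by the Euclidean distance between log2(normalized counts + 1) values centred on each gene's mean over the 4 libraries. Among 11860 genes that averaged 100 or more normalized counts, 3 lay within 0.1 of Rrm2 and 25 within 0.2. Cyp26b1, an enzyme that degrades retinoic acid, was nearest at a distance of 0.026, with 7249 and 5168 normalized counts in libraries labelled Prox1 KO and 4546 and 3389 in the controls. Next came the transcription factor gene Grhl3 (0.077), with 404 and 282 against 262 and 190, and Sytl1 (0.099), with 1349 and 970 against 865 and 686. The order went on with Cyfip2, Slc6a17, Smad9, Tex15, Alox5, Col22a1 and Atg9b, at distances from 0.114 to 0.138.

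None of the other deoxynucleotide genes was among the genes nearest to Rrm2. Dctd was the closest of them at a distance of 0.671, in place 2031 of 11860, followed by Dut at 0.751, Dck at 0.80, Samhd1 at 0.820 and Rrm1 at 0.823. Rrm1 took place 7136. Tyms followed at 1.01 in place 10477, and Tk1 at 1.503 in place 11662. With 4 libraries these distances are a description, and they contain the difference on which the genes were chosen.

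**Figure D4:**
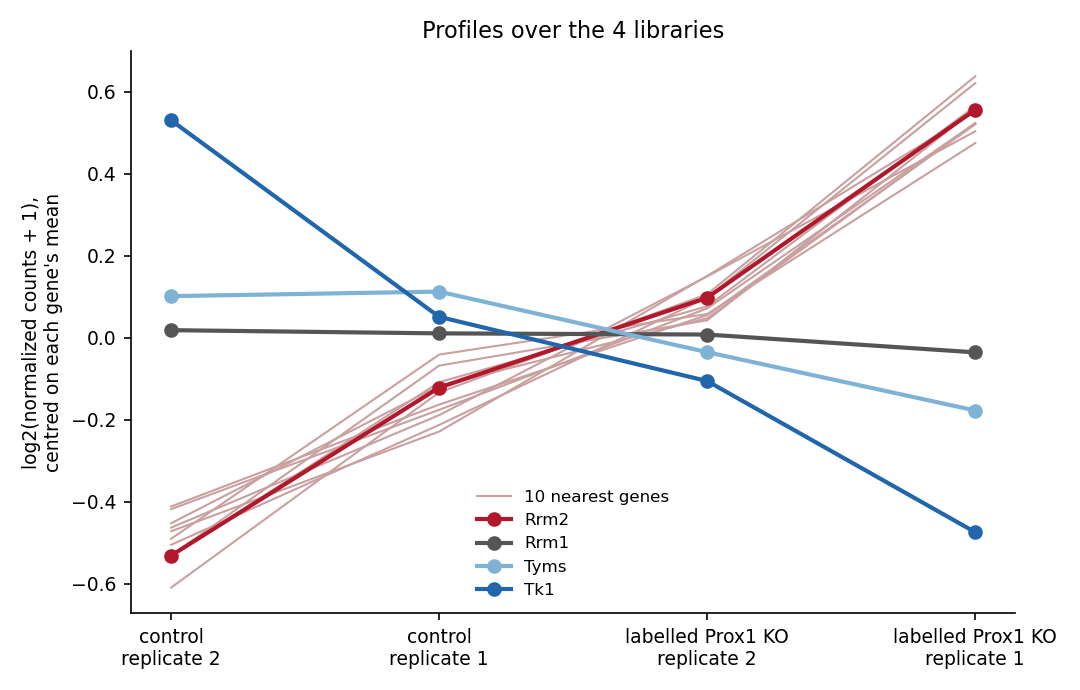
Profiles of Rrm2, its 10 nearest genes, Rrm1, Tyms and Tk1 over the 4 libraries, as log2(normalized counts + 1) centred on each gene's mean (vertical axis). Libraries are ordered from the lowest to the highest value of Rrm2, lines join the libraries of a gene, and thin lines are the nearest genes. Rrm2 and its nearest genes go up from left to right, Rrm1 stays near 0 and Tk1 goes down.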

How the data were processed

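RNA was collected from 4 bulk cultures. The authors mapped paired-end reads to mm10 with STAR and deposited a signal per gene, which is the read count after division by the DESeq2 size factor of the library. The tool used for counting, its strand setting and the annotation release are not given in the sources used here. The authors' own comparison table (fold changes and p-values) was not used.

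All positive values were whole multiples of their library's step (100% within a tolerance of 0.001), so reads were recovered, with size factors from 0.939 to 1.09. The 15809 of 55397 genes that averaged 10 or more normalized counts went into limma 3.58.1 (R 4.3.3) as log2(normalized counts + 1). The fit used an intensity trend and a block for the replicate number. Adjustment was by Benjamini-Hochberg over all genes tested, with a threshold of 0.05. The block follows the methods, where the MEF line is a covariate. The sources do not say whether a number marks a line. Deviations of same-numbered libraries from their group means correlated across genes (0.402 over all genes and 0.331 over autosomal genes, which are not independent replicates), and Xist separated the numbers. An exact permutation test of 2 against 2 libraries cannot give a two-sided p under 0.333. Libraries of the same group differed beyond sampling noise in 34.3% and 35.4% of genes, so none was a duplicate. Xist shows that the cells of the replicate numbers differed in sex makeup, but the sources do not say which animals the libraries came from. The p-values therefore cannot be read as spread between animals. With the block, they rest on how far the group difference varied between the replicate numbers, with variance shared over genes. The difference between the replicate numbers itself is taken out. SDs are between libraries, and standard errors are limma's.

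The 8 genes and all lists were chosen with earlier results of these data known. Named were all 8, Prox1, Rrm2b, Mki67, Top2a, Pcna, Mcm2, Ccnf and Fzr1, up to 4 called genes of each list with the largest changes, and the 10 genes nearest to Rrm2. Exceptions are said in the text, and a result for 1 listed gene is not reported here. Coordinates and lengths come from GENCODE vM21 (GRCm38; 55137 identifiers matched), and promoters from RefSeq, which held all 8 genes. The fits were also run on simulated counts with the same variance setting for every gene. That setting cannot show which of the differing numbers of calls is right. Alternatives were no block, pseudocounts of 0.1 and 10, other filters, quantile normalization, TMM factors, edgeR 4.0.16 and DESeq2 1.42.0 on recovered reads, a GC and length correction, and each library left out. Another transcript length was added after seeing the data. The values carry no molecular identifiers, so read counts do not show amplification error.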

Additional observations from a re-analysis of the deposited data

How the results depend on the processing

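Rrm2 kept a positive log2 fold change in all 11 alternatives with 4 libraries, between 0.63 and 0.71, the highest after the GC and length correction (0.71). It was 0.63 without replicate 1 and 0.68 without replicate 2. With single libraries left out and no replicate block it was 0.42 without replicate 1 and 0.88 without replicate 2 of the libraries labelled Prox1 KO, and 0.86 and 0.45 without those of the controls. Tk1 was between -0.59 and -0.50 with 4 libraries and between -0.82 and -0.34 with a library left out, lowest in size (-0.34) without replicate 2 of the controls. Cad, Impdh1, Dpyd, E2f6, Mybl2 and Cdc6 did not pass with quantile normalization. The fitted values of Rrm1 and Dut changed sign in 1 and 2 alternatives. The cause of none of the changes below was tested.

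The number of called genes depended on the test and on the pairing. Between the groups limma called 1798 genes (3751 had an unadjusted p under 0.05), and 0 without the replicate block (1783 unadjusted). DESeq2 called 483 with the block and 160 without it, all among the 1798, and edgeR with the block called 1800. Leaving out 1 library, again without the block, gave 0 to 118. For the pathway genes the 14 calls became 9 with quantile normalization, 1 in DESeq2 with the block, 0 in DESeq2 without it, and 0 in limma without the block (10 unadjusted) or with any library left out. For the regulator, S phase and G2/M genes the 30 calls became 4 in DESeq2 with the block, 3 without it, 0 in limma without the block (25 unadjusted), and 0 to 1 with a library left out.

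Between the replicate numbers the 1245 calls became 393 in DESeq2 and 23 when the group term was left out, and 25, 33, 37 and 135 with a library left out. Rrm2 passed in 10 of 11 fits of this comparison with 4 libraries, and Tk1 in 1, with every gene above 0 tested (limma adjusted p = 0.0481). DESeq2 without the block has no replicate term and gave no value. With 1 replicate number left, counts of calls could not be had. Genes with few reads, such as Tk1 and Prox1, limit what these 2 libraries a group can show.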

Other observations

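A few values belong to none of the comparisons above, and the genes were chosen after their values were seen. Among 7115 genes that averaged 1000 or more normalized counts, 4 had a log2 fold change as high as that of Rrm2 or higher. Beside Rrm2 (0.65) these were Xist (0.78), Cck (0.74) and Myh11 (0.72), of which Xist differed mainly between the replicate numbers. The genes whose profiles over the 4 libraries lay nearest to Tk1 were Brinp1, at a distance of 0.04, Slc38a4, an amino acid transporter, at 0.04, and Cxadr, a receptor at cell junctions, at 0.08. Slc38a4 had 579 and 753 normalized counts in libraries labelled Prox1 KO and 808 and 1154 in the controls. Cxadr had 628 and 805 against 958 and 1309.

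Between the replicate numbers, 12 of the 88 pathway genes differed in limma's test, 3 higher and 9 lower in replicate 2, beside 7.88% of all genes tested (694 higher and 551 lower). The 3 were Cmpk2 (log2 difference 0.22), xanthine dehydrogenase Xdh (0.42) and guanine deaminase Gda (0.28), all of which were higher in replicate 2 in both groups. Among the 9 were Ampd3 (-0.29), Dpyd (-0.27) and adenosine deaminase Ada (-0.45). In the S phase list 3 genes were higher in replicate 2 (Mcm3, Mcm6 and Ccne1) and in the G2/M list 3 (Mki67, Bub1b and Plk1), with none lower in either list. These are 3 of 36 and 3 of 26 genes, to be read beside the same 7.88%.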
